A study of Mus musculus with 10 samples.

Results

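Of the 54838 genes in the count tables, 9 were taken as the core of the endocannabinoid system. They were matched by their GRCm38 gene symbol and chosen by function rather than by their counts: the CB1 cannabinoid receptor gene Cnr1, its interacting protein gene Cnrip1, and 7 enzyme genes for making or breaking down the lipid ligands. All 9 passed the filter on low counts, which kept 16806 genes. The libraries held ribosome-bound RNA of mouse hippocampus, purified by translating ribosome affinity purification (TRAP) and compared between 5 Dorsal and 5 Ventral libraries. Both groups were MC-TRAP mice (Drd2-Cre;Eef1a1LSL.eGFPL10a/+) of strain C57BL/6 without further treatment. In these mice Cre recombinase under the dopamine D2 receptor promoter switches on an EGFP-tagged ribosomal protein L10a. Per the methods of the study, the mice were males about 10 weeks of age, and each library came from tissue pooled over 5 mice, so that a replicate is a pool. Each hippocampus was split into a smaller dorsal and a larger ventral part, and the ventral subiculum was cut away. The dorsal and ventral pools therefore came from the same mice, although the sources used here do not say which pools share them.

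The model has a limit that bears on every value. The Drd2-Cre line marks mossy cells, the excitatory neurons of the dentate hilus, but also labels scattered GABAergic interneurons. Drd2 itself was at 28.1 ± 3.96 CPM (a count adjusted for library size, mean ± SD, n = 5) in dorsal and 20.7 ± 4.36 CPM in ventral libraries. Gad2, which makes GABA in inhibitory neurons, was at 2853 ± 453 and 3174 ± 407 CPM, far above Drd2 in every library of both groups. The GABAergic markers Gad1 and Slc32a1 were lower, at 257 ± 43.8 and 355 ± 35.4 CPM, and at 51.5 ± 4.91 and 54.4 ± 8.93 CPM. Levels of different genes do not give the shares of cell types. In the histology of the study, most tagged neurons of the dentate gyrus carried a mossy cell marker. Because the libraries are bulk samples, fewer cells of a type and less RNA per cell cannot be told apart. Counts on genes ran from 11138676 to 16779821 in dorsal and from 11618625 to 20594364 in ventral libraries. At this depth 3 counts equal 0.146 to 0.269 CPM. Read pairs outside genes made up 27.01 ± 5.09% in dorsal and 14.4 ± 2.997% in ventral libraries, with no overlap (two-sided exact permutation test, p = 0.00794, the smallest that 5 against 5 can give).

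Endocannabinoids are lipid messengers that many neurons make on demand at the postsynaptic side and that act backward on CB1 receptors of the presynaptic terminal, where they reduce transmitter release. The main brain ligand, 2-arachidonoylglycerol (2-AG), is cut from diacylglycerol by the diacylglycerol lipases and removed by monoacylglycerol lipase and, to a lesser extent, by the hydrolases ABHD6 and ABHD12. Anandamide, the other classical ligand, can be made by the phospholipase D encoded by Napepld and is broken down by fatty acid amide hydrolase. In the hippocampus CB1 is known to be most abundant on terminals of cholecystokinin interneurons, and it is also carried by the excitatory terminals of mossy cells.

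Of the 9 genes, 7 had a higher fitted level in dorsal libraries and 2, Cnr1 and Cnrip1, a lower one. Dagla and Daglb were called dorsal-enriched, at an adjusted p below 0.05 and a log2 ratio of mean CPM plus 1 above 0.58. That is 22.2% of the 9 genes, beside 15.7% of all tested genes called dorsal-enriched. None was called ventral-enriched, beside 9.85% of all tested genes. Without the fold requirement, 4 of 9 genes (44.4%) had an adjusted p below 0.05 and were higher in dorsal libraries, beside 19.0% of all tested genes. On the same terms 2 of 9 (22.2%) were higher in ventral libraries, beside 14.6%. The median log2 fold change, dorsal over ventral, was 0.32 over the 9 genes and -0.00437 over all tested genes. It was -0.0409 over the tested protein-coding genes.

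**Figure D1:**
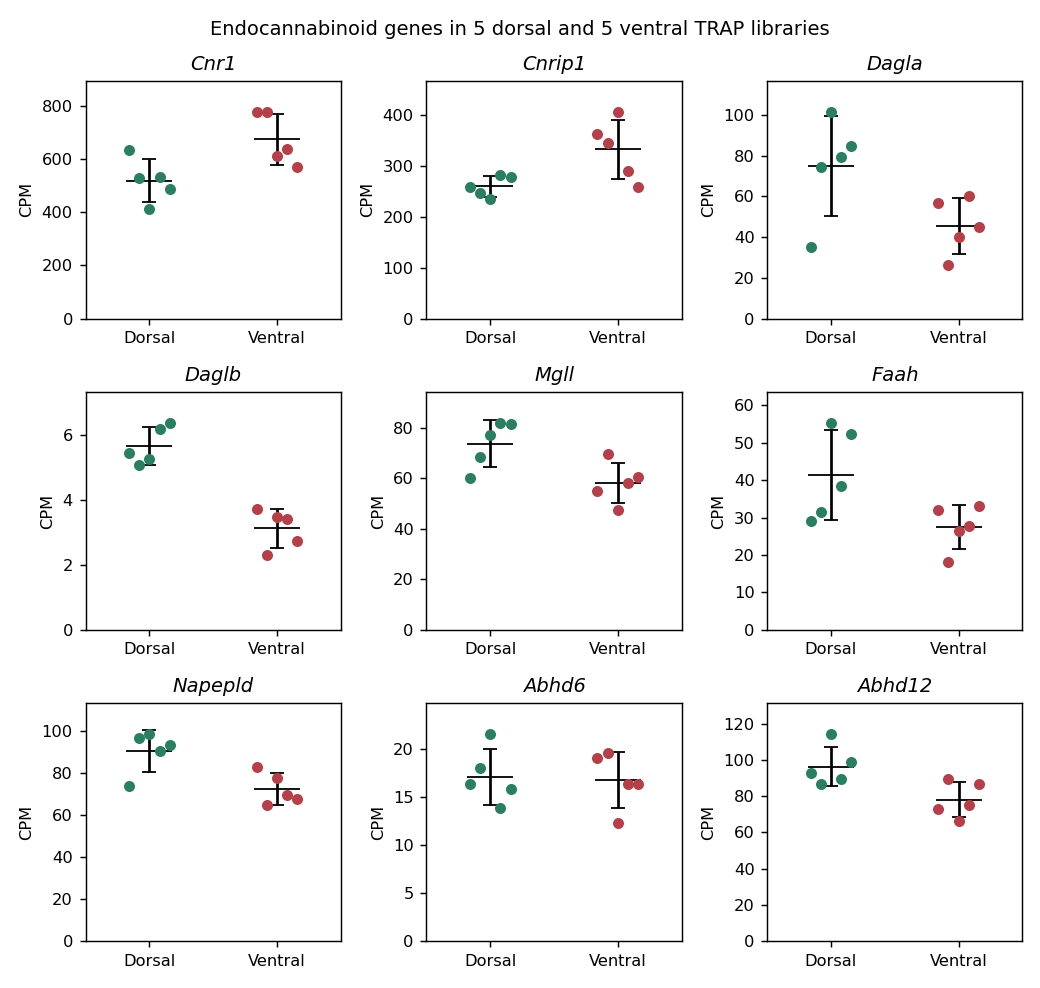
CPM of each of the 9 genes (vertical axes, from 0) in 5 dorsal and 5 ventral libraries. Each point is a library in replicate order, and bars give the mean ± 1 SD. The dorsal and ventral points are separate for Daglb alone.

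Promoter windows are shown for those genes with an adjusted p below 0.05 that have a RefSeq window lying outside annotated exons by all but a few bases, so that the sequence next to the genes that differ can be read. RefSeq windows on GRCm38.p6 were matched for 7 of the 9 genes, and the 250 bases before the most upstream start are given 5′ to 3′ on the strand of the gene. Capitals mark the motifs that were searched on both strands. These were the GC box (GGGCGG), the cAMP response element (TGACGTCA) and its half-site (TGACG, also contained in the full element), the TATA box (TATAAA) and the CCAAT box (CCAAT). The Cnr1 window is at chr4:33924014-33924263 on the plus strand, Daglb at chr5:143464243-143464492 on the plus strand, Faah at chr4:116017925-116018174 on the minus strand and Napepld at chr5:21701623-21701872 on the minus strand.
Cnr1: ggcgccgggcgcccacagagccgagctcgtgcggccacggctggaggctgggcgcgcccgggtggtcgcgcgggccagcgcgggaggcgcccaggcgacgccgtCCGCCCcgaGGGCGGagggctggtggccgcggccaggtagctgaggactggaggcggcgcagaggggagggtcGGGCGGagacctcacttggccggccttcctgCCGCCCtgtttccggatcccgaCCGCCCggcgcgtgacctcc
Daglb: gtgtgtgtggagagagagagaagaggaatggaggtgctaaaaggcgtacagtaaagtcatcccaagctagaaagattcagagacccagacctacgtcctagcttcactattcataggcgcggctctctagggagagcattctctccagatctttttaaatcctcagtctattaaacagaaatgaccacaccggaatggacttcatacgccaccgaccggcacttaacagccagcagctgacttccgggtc
Faah: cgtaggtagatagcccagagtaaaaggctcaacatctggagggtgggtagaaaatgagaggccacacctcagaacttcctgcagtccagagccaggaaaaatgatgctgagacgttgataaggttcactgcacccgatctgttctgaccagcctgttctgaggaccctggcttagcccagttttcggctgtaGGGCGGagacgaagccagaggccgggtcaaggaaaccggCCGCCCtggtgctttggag
Napepld: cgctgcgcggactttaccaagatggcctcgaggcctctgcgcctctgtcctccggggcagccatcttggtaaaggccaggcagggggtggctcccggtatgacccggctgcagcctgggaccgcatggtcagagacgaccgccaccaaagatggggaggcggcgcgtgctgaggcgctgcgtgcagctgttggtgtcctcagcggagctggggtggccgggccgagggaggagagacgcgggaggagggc
The Cnr1 window held 5 GC boxes and was 79.2% G or C, and the Faah window held 2 GC boxes at 55.6%. A GC box was found in 32.7% of all 32851 windows of this length, whose median was 52.4% G or C. The Daglb window, at 49.2%, and the Napepld window, at 69.6%, held none of the 5 motifs. Across all windows the CCAAT box was found in 33.8%, the half-site in 17.8%, the TATA box in 12.4% and the full cAMP response element in 1.55%. These matches are letters in a window, not known sites.

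Cnr1 encodes the CB1 receptor, the G protein-coupled receptor that both ligands activate. The gene lies at chr4:33924593-33948831 on the plus strand. Its level was 633, 529, 411, 534 and 488 CPM in dorsal libraries 1 to 5 and 777, 775, 610, 636 and 570 CPM in ventral libraries 1 to 5. The lowest 4 libraries were all dorsal, and dorsal library 1 alone reached into the ventral range. The means were 519 ± 80.6 and 674 ± 96.4 CPM (SD, n = 5 each). The fitted log2 fold change was -0.38 ± 0.124 (SE), with an adjusted p of 0.0307 from edgeR's quasi-likelihood test, a difference below the fold threshold of a call. Leaving out 1 library at a time moved the adjusted p between 0.0117 and 0.0829, and it stayed below 0.05 in 4 of the 10 cases.

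Cnrip1 encodes a small protein that binds the intracellular tail of CB1, and it moved in the same direction. It lies at chr11:17051586-17079371 on the plus strand. Dorsal libraries 1 to 5 held 259, 246, 235, 282 and 279 CPM and ventral libraries 1 to 5 held 363, 346, 406, 291 and 259 CPM. The dorsal libraries were tightly grouped, whereas the ventral libraries spread widely, and ventral library 5 fell among the dorsal values. The means were 260 ± 20.3 and 333 ± 58.7 CPM, with a log2 fold change of -0.35 ± 0.121 and an adjusted p of 0.0367, again under the fold threshold. With 1 library left out the adjusted p stayed below 0.05 in 2 of 10 cases. Exons of Cnrip1 share 199 bases (4.97%) with Plek on the opposite strand, and whether the counting used strand is not given in the sources used here, so its counts are uncertain to that extent. The count ratio per length of Cnr1 to Cnrip1 within a library was 1.24 ± 0.185 in dorsal and 1.28 ± 0.194 in ventral libraries, which overlapped.

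Markers of the interneurons in which CB1 is abundant were lower in dorsal libraries too. The 7 cholecystokinin interneuron markers summed to 224 to 288 CPM in dorsal and 378 to 436 CPM in ventral libraries. All 7 had a lower fitted level in dorsal libraries, and none was at 0 in all libraries. Of them 3 (42.9%) were called ventral-enriched, beside 9.85% of all tested genes. Cck itself was at 179 ± 35.3 and 263 ± 29.6 CPM. Of 11 general GABAergic markers, 10 had a lower fitted dorsal level and 3 (27.3%) were called ventral-enriched, beside 9.85% of all tested genes. Their sums were 3688 to 4905 CPM in dorsal and 4420 to 5871 CPM in ventral libraries. Most of each sum was Gad2, which missed the threshold (adjusted p = 0.324), as did Slc32a1, at 51.5 ± 4.91 and 54.4 ± 8.93 CPM (adjusted p = 0.748). Gad1 was at 257 ± 43.8 and 355 ± 35.4 CPM (adjusted p = 0.0103), below the fold threshold. The part of these markers in the Cnr1 and Cnrip1 differences was not tested.

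Dagla encodes diacylglycerol lipase alpha, the main 2-AG synthase of adult synapses, and lies at chr19:10245265-10304877 on the minus strand. Dorsal libraries 1 to 5 held 35.1, 74.3, 101, 79.3 and 84.9 CPM, and ventral libraries 1 to 5 held 56.6, 26.3, 39.9, 60.3 and 44.8 CPM. Dorsal libraries 2 to 5 exceeded every ventral library, while dorsal library 1 was lower than 4 of the 5 ventral ones. The means were 75.0 ± 24.5 and 45.6 ± 13.6 CPM, the log2 fold change was 0.71 ± 0.245 and the adjusted p was 0.0374. The call depended on single libraries. The adjusted p rose to 0.0535, 0.0918, 0.0736 or 0.0759 without dorsal library 2, 3, 4 or 5, and to 0.0717, 0.0693 or 0.0746 without ventral library 2, 3 or 5. It was 0.0552 with the quasi-likelihood dispersions of edgeR 3 in place of those of edgeR 4, a choice that was settled after both values had been seen.

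Daglb encodes the beta form of the same lipase, which is known to be the more prominent form in microglia and other cells outside the synapse. It lies at chr5:143464584-143505942 on the plus strand. Dorsal libraries 1 to 5 held 5.46, 5.07, 5.25, 6.19 and 6.36 CPM, and ventral libraries 1 to 5 held 3.72, 2.29, 3.46, 3.42 and 2.74 CPM. The groups did not overlap, as for 9.81% of all tested genes with dorsal above ventral, and Daglb was the only 1 of the 9 genes (11.1%) with this pattern. The means were 5.66 ± 0.578 and 3.12 ± 0.591 CPM, with a log2 fold change of 0.85 ± 0.248 and an adjusted p of 0.0187. The counts behind these levels were small, from 58 to 103 in dorsal and from 26 to 67 in ventral libraries. The adjusted p was 0.0528, 0.0501 or 0.0556 without dorsal library 4, dorsal library 5 or ventral library 5. Daglb shares 2309 exonic bases (24.1% of its exons) with Rac1 on the opposite strand. Depending on the strand setting, which is not given, reads there may be left out as ambiguous or may come from Rac1. The counts and level of Daglb are uncertain to that extent. Microglial markers summed to 40.4 to 53.9 CPM in dorsal and 26.5 to 49.1 CPM in ventral libraries, which overlapped, and none was at 0 in all libraries. Of 9 markers 7 had a higher and 2 a lower fitted level in dorsal libraries. Calls were dorsal-enriched for 2 (22.2%), beside 15.7% of all tested genes. The 2 lower ones were P2ry12 and Aif1, named after their values were seen. Cx3cr1, a defining microglial receptor, was at 5.78 ± 1.68 and 3.44 ± 1.21 CPM and was not called (adjusted p = 0.0956). The part of these cells in the Daglb difference was not tested.

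The ratio of Dagla to Daglb counts per length within a library was 22.2 ± 7.70 in dorsal and 24.0 ± 4.69 in ventral libraries. The alpha form was thus the more abundant transcript in the ribosome-bound RNA of both groups, within the limits of the Daglb counts. The 2 ranges overlapped.

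Napepld encodes the phospholipase D that releases N-acylethanolamines, anandamide among them, and lies at chr5:21662901-21701396 on the minus strand. Dorsal libraries 1 to 5 held 73.5, 96.5, 98.3, 90.2 and 93.2 CPM and ventral libraries 1 to 5 held 82.7, 64.5, 77.5, 69.6 and 67.4 CPM. Dorsal library 1 fell inside the ventral range and the other 4 lay above it. The means were 90.3 ± 9.92 and 72.3 ± 7.55 CPM, the log2 fold change was 0.32 ± 0.116 and the adjusted p was 0.0441, below the fold threshold. It stayed below 0.05 in 3 of the 10 fits that left out a library.

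Faah encodes the hydrolase that ends the action of anandamide and lies at chr4:115967145-116017926 on the minus strand. Dorsal libraries 1 to 5 held 29.1, 31.6, 55.3, 38.6 and 52.4 CPM and ventral libraries 1 to 5 held 32.0, 18.1, 26.5, 27.8 and 33.0 CPM. Dorsal libraries 1 and 2 lay within the ventral range. The means were 41.4 ± 11.9 and 27.5 ± 5.90 CPM, with a log2 fold change of 0.57 ± 0.204 and an adjusted p of 0.0448. Its log2 ratio of mean CPM plus 1 was 0.57, just short of the 0.58 needed for a call. The gene was called dorsal-enriched without dorsal library 1 (adjusted p = 0.0214), dorsal library 2 (0.0265) or ventral library 1 (0.0491). The count ratio per length of Napepld to Faah was 4.55 ± 1.07 in dorsal and 5.39 ± 1.12 in ventral libraries, which overlapped.

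Mgll encodes monoacylglycerol lipase, the main enzyme that removes 2-AG in brain, and lies at chr6:88724412-88828360 on the plus strand. Dorsal libraries 1 to 5 held 60.0, 68.3, 77.0, 81.8 and 81.3 CPM and ventral libraries 1 to 5 held 55.0, 69.6, 47.5, 58.0 and 60.5 CPM. Ventral library 2 was above dorsal libraries 1 and 2, and the remaining dorsal libraries exceeded every ventral one. The means were 73.7 ± 9.36 and 58.1 ± 8.06 CPM, with a log2 fold change of 0.35 ± 0.129 and an adjusted p of 0.0507, which missed the threshold. With offsets for each library's trend with GC content and exonic length the log2 fold change was 0.63 and the adjusted p 0.000837. Exons of Mgll share 167 bases (3.29%) with the antisense gene Gm26588, and to that extent its counts are uncertain.

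Abhd12 and Abhd6 encode the other hydrolases that act on 2-AG, ABHD12 being best known as a lysophosphatidylserine lipase. Abhd12, at chr2:150832493-150904741 on the minus strand, held 92.9, 86.9, 114, 89.4 and 98.7 CPM in dorsal libraries 1 to 5 and 73.0, 89.5, 66.4, 74.9 and 86.5 CPM in ventral libraries 1 to 5. Its groups overlapped through ventral library 2, its log2 fold change was 0.30 ± 0.119 and its adjusted p of 0.0629 missed the threshold. With the GC and length offsets its log2 fold change was 0.50 and its adjusted p 0.00251, still under the fold threshold. Abhd6, at chr14:8002902-8056763 on the plus strand, held 16.4, 18.1, 21.5, 13.8 and 15.8 CPM in dorsal libraries and 19.1, 19.6, 12.3, 16.3 and 16.3 CPM in ventral libraries. The ranges of Abhd6 almost coincided. Its log2 fold change was 0.03 ± 0.177 with an adjusted p of 0.922, and it was the least changed of the 9 genes.

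Dorsal library 1 had the lowest dorsal level of Dagla, Mgll, Faah and Napepld and the highest dorsal level of Cnr1, and in each of these genes it was the dorsal library closest to the ventral mean. Without it the median log2 fold change of the 9 genes was 0.39. Summed markers of oligodendrocytes, of astrocytes and of mossy cells were also higher in dorsal libraries. The astrocyte sum mainly followed Slc1a2 and the mossy cell sum mainly followed Gria2, so neither speaks for its list as a whole. The calls in these lists stand beside 15.7% of all tested genes called dorsal-enriched and 9.85% ventral-enriched. Oligodendrocyte markers summed to 2451 to 2913 CPM in dorsal and 909 to 1733 CPM in ventral libraries, with 8 of 8 at a higher fitted level in dorsal libraries and 4 called dorsal-enriched. Astrocyte markers summed to 1963 to 2244 and 867 to 1461 CPM, but the list was split, with 5 of 9 at a higher and 4 at a lower fitted level in dorsal libraries, 4 called dorsal-enriched and 1 ventral-enriched. Most of the astrocyte sum was the glutamate transporter gene Slc1a2, at 1774 ± 80.5 and 870 ± 161 CPM. Aqp4, the astrocyte water channel, was at 41.0 ± 3.46 and 23.4 ± 6.45 CPM, whereas Aldoc, a glycolytic enzyme, was at 133 ± 16.7 and 196 ± 30.7 CPM (adjusted p = 0.00533) and Aldh1l1, the ventral call, at 1.17 ± 0.901 and 4.16 ± 1.68 CPM. Mbp, a myelin protein, was at 220 ± 41.7 and 147 ± 42.7 CPM.

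Mossy cell markers summed to 1848 to 2086 CPM in dorsal and 1375 to 1578 CPM in ventral libraries, with 5 of 8 at a higher and 3 at a lower fitted dorsal level. The list left out Calb2, which the study used as a marker of ventral mossy cells. The glutamate receptor subunit genes Gria2 and Gria3 and the adhesion gene Ajap1 were called dorsal-enriched, and Satb1, a chromatin organiser, was called ventral-enriched. Gria2 made up most of the sum, at 1143 ± 98.0 and 651 ± 73.0 CPM, and Satb1 was at 270 ± 28.8 and 450 ± 33.2 CPM. Calcrl was at 3.30 to 21.6 CPM in dorsal and 4.23 to 11.2 CPM in ventral libraries. No marker of the 3 lists was at 0 in all libraries. Slc1a2, Aldoc, Aldh1l1, Gria2, Gria3, Ajap1 and Satb1 were named after their values were seen. The part of glial or mossy cell RNA in the enzyme differences was not tested.

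Read pairs that fell outside genes took shares that separated the groups completely, so that this share and the region cannot be told apart by a comparison within equal shares. With this share as a covariate none of the 9 genes was called and the median log2 fold change was 0.10. Cnr1 then had a log2 fold change of 0.09 ± 0.199 (SE, adjusted p = 0.8295) and Dagla 0.10 ± 0.477 (0.924). Faah had 0.11 ± 0.399 (0.899) and Napepld 0.07 ± 0.222 (0.879). Cnrip1, Daglb and Mgll kept fold changes of -0.36 ± 0.237, 0.97 ± 0.495 and 0.39 ± 0.265, with adjusted p of 0.378, 0.251 and 0.399. These standard errors were larger than in the reported fit, where that of Dagla was 0.245. A call lost with the covariate therefore does not show that a difference is absent.

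**Figure D2:**
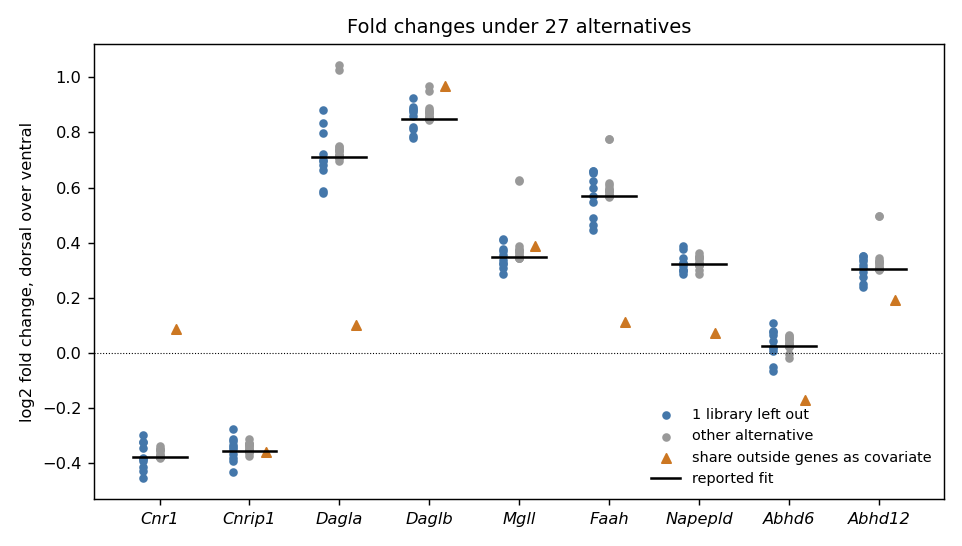
Log2 fold change, dorsal over ventral (vertical axis), of each of the 9 genes under 27 alternatives. Black lines are the reported values, blue points leave out 1 library, grey points change another setting and orange triangles add as covariate the share outside genes. Cnr1, Dagla, Faah and Napepld lie near 0 with the covariate, where standard errors (not drawn) are larger than in the reported fit.

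Levels were then compared between the genes per kilobase of exon. Cnr1 and Cnrip1 were the most abundant of the 9 genes, Daglb the least, and the order of means was the same in both groups. In dorsal libraries it ran from Cnr1 at 80.5 ± 12.5 CPM per kilobase through Cnrip1 (65.0), Abhd12 (34.1), Napepld (22.8), Mgll (14.5), Dagla (13.0), Abhd6 (7.24) and Faah (5.28) to Daglb (0.592). In ventral libraries the same order ran from 105 ± 14.95 for Cnr1 through 83.2, 27.7, 18.3, 11.4, 7.93, 7.08 and 3.51 to 0.327. Neighbours whose library ranges overlapped in both groups were Cnr1 with Cnrip1, Mgll with Dagla, and Dagla with Abhd6. Abhd6 and Faah overlapped in dorsal libraries alone. Among 13549 tested protein-coding genes, mean levels per kilobase put Cnr1 at percentile 97.2, Cnrip1 at 96.3, Abhd12 at 89.6, Napepld at 84.2, Mgll at 76.3, Dagla at 72.0, Abhd6 at 63.6, Faah at 52.3 and Daglb at 11.8. The spread among libraries of a group was widest for Dagla, with a coefficient of variation of 32.7% in dorsal and 29.9% in ventral libraries, and for Faah, with 28.9% and 21.5%. It was 10.4% to 10.98% for Napepld.

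**Figure D3:**
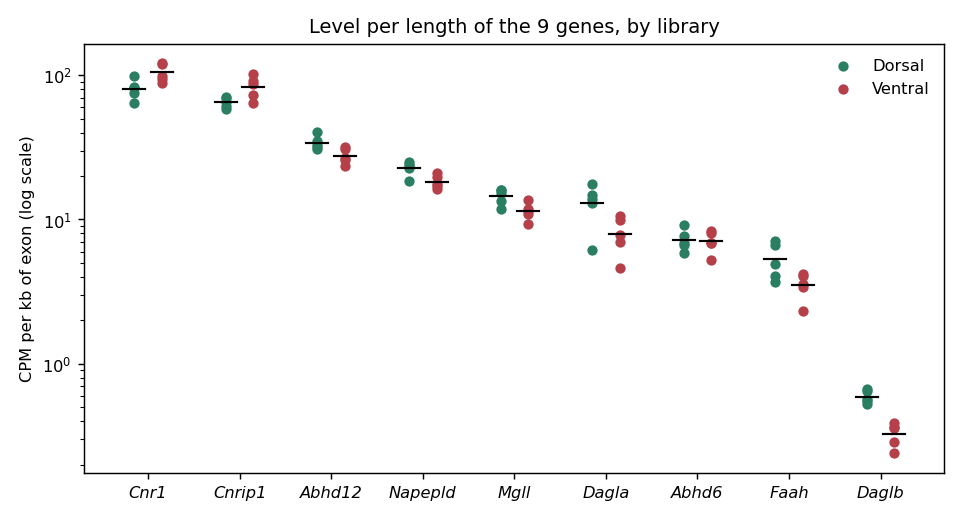
Level per kilobase of exon (vertical axis, log scale) of the 9 genes in each library, ordered by the dorsal mean. Points are libraries and black lines group means. Cnr1 and Cnrip1 are the most abundant in both groups and Daglb the least.

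The genes around this core were 29 in lists set by function. Of these, 22 were tested, 3 were called dorsal-enriched (13.6%, beside 15.7% of all tested genes) and 3 ventral-enriched (13.6%, beside 9.85%), and their median log2 fold change was -0.11. None of the other receptors that respond to cannabinoids reached the tested range. Summed over 5 libraries, the dorsal and ventral counts were 1 and 0 for Cnr2 (the CB2 receptor), 40 and 3 for Gpr55, 2 and 0 for Gpr18, and 4 and 0 for Trpv1. Gpr119 had 0 counts in all 10 libraries, which allows a level of up to 0.0202 CPM, the value of 3 counts over their summed totals.

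Phospholipase C beta enzymes make the diacylglycerol that the lipases cut. Of these 4 genes Plcb4 alone (25%) was called, beside 15.7% of all tested genes called dorsal-enriched. It was at 221 to 252 CPM in dorsal and 99.6 to 164 CPM in ventral libraries. Its log2 fold change was 0.94 ± 0.125, with an adjusted p of 0.000183. Its groups did not overlap, as for 9.81% of all tested genes with dorsal above ventral. Plcb4 was called in 26 of 27 alternatives, the exception being the covariate of read pairs outside genes (adjusted p = 0.0548). Plcb1, the most abundant of the list per length, was at 529 ± 121 and 575 ± 144 CPM with an adjusted p of 0.614.

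Among 7 further genes of N-acylethanolamine metabolism, 6 were tested and 2 were called. These were 16.7% dorsal-enriched, beside 15.7% of all tested genes, and 16.7% ventral-enriched, beside 9.85%. Naaa, the acid amidase that hydrolyses N-acylethanolamines, was dorsal-enriched at 6.43 to 10.2 against 3.26 to 4.05 CPM (log2 fold change 0.98 ± 0.240, adjusted p = 0.00756). Pla2g4e, an N-acyltransferase that makes the precursors used by the Napepld product, was ventral-enriched at 0.188 to 3.41 CPM in dorsal and 2.91 to 7.91 CPM in ventral libraries (-1.62 ± 0.404, adjusted p = 0.00827). These ranges overlapped. Gdpd1, the most abundant per length, was at 58.6 ± 21.4 and 56.7 ± 7.83 CPM with an adjusted p of 0.937.

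Fatty acid binding proteins carry anandamide and other lipids through the cytosol. Of the 3 genes, 2 (66.7%) were ventral-enriched, beside 9.85% of all tested genes. Fabp5 was at 30.0 to 37.3 CPM in dorsal and 55.7 to 68.7 CPM in ventral libraries, with a log2 fold change of -0.94 ± 0.123 and an adjusted p of 0.000146. Fabp3, the most abundant of the list per length, was at 6.30 to 11.7 and 13.7 to 18.6 CPM (-0.82 ± 0.195, adjusted p = 0.00638). Fabp5 was called in all 27 alternatives, and Fabp3 in 24. The groups did not overlap for either gene, as for 8.36% of all tested genes with ventral above dorsal.

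Of the enzymes that oxidise 2-AG and anandamide, Ptgs2 (cyclooxygenase 2) was at 10.6 ± 2.49 and 10.9 ± 5.03 CPM with an adjusted p of 0.907. Alox12, a lipoxygenase, was called dorsal-enriched on 58 dorsal and 6 ventral counts in all, with 2 ventral libraries at 0. Alox15 had 0 counts in all 10 libraries, with the same upper limit as Gpr119. None of the 7 genes for CB1 partners and G proteins was called, beside 15.7% of all tested genes called dorsal-enriched and 9.85% ventral-enriched. All 7 had slightly lower fitted levels in dorsal libraries, with a list median of -0.18. Gnai1, an inhibitory G protein subunit and the most abundant per length, was at 554 ± 88.5 and 629 ± 98.7 CPM with an adjusted p of 0.277.

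**Figure D4:**
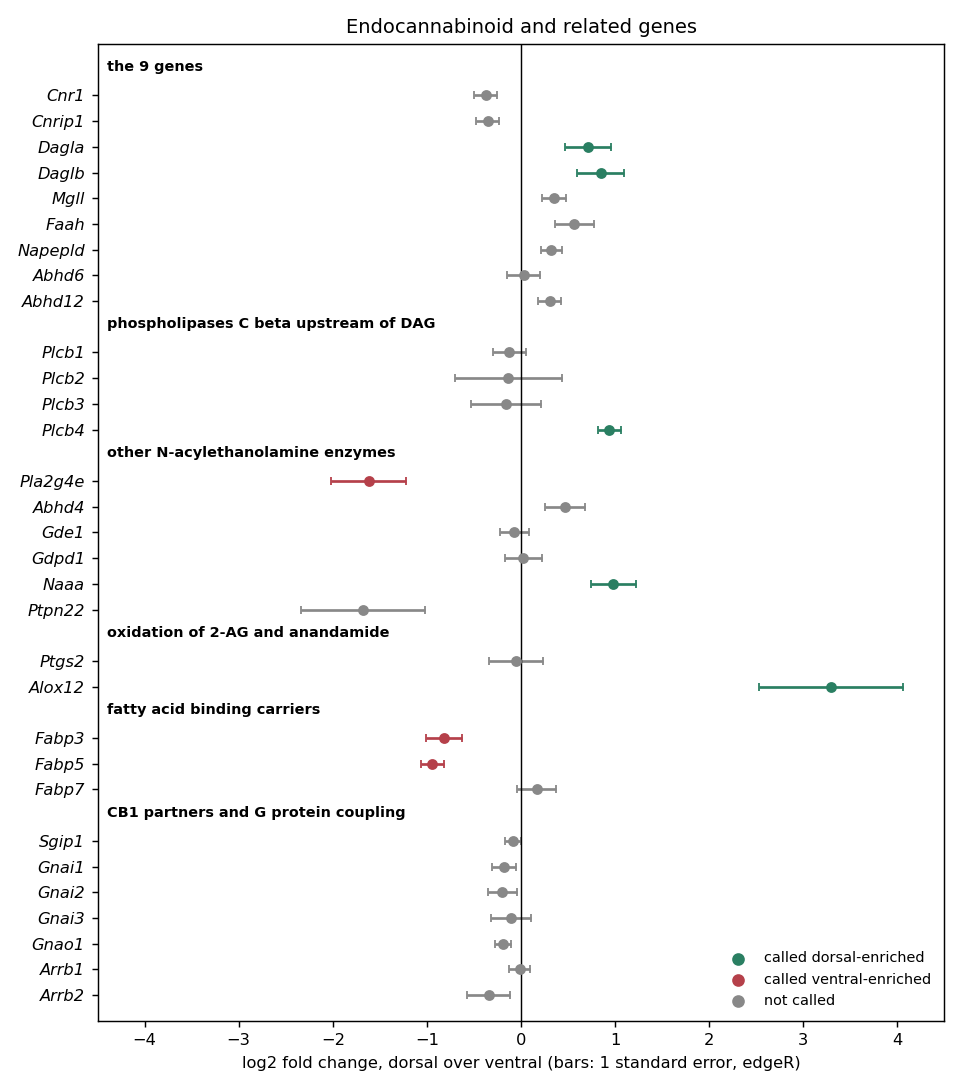
Log2 fold change, dorsal over ventral (horizontal axis), with 1 standard error for the 9 genes and 22 tested related genes. Green points were called dorsal-enriched, red points ventral-enriched and grey points neither. Of the 9 genes, Cnr1 and Cnrip1 lie left of 0, Abhd6 lies near 0 and the others lie to the right.

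The protein-coding genes whose pattern over the 10 libraries was most like that of Cnr1 were Sept7, Rnf14 and Fgf12. After centring each gene's log2(CPM + 1) on its own mean, they differed from Cnr1 by a root mean square of 0.0574, 0.0614 and 0.0738. Their log2 fold changes were -0.34, -0.39 and -0.37, with adjusted p of 0.0527, 0.0163 and 0.0568. Because these genes were picked for likeness to Cnr1 in the same libraries, fold changes near its own follow from the choice.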

How the data were processed

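Ribosome-bound RNA was sequenced in 5 dorsal and 5 ventral pools. Per the methods of the study, RNA was amplified with the Ovation kit, read as paired ends, aligned to GRCm38 with STAR 2.5.2b and counted with HTSeq 0.7.2. The deposited values are the authors' raw counts per Ensembl gene, neither normalised nor filtered. The annotation release and strand setting are not given in the sources used here. Groups and replicate numbers came from the labels.

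The analysis used edgeR 4.0.16 under R 4.3.3. Rows that name no gene (18.7% to 39.8% of read pairs) were left out of library sizes. Genes that exceeded 1 CPM in 2 or more libraries were scaled by TMM and tested with the quasi-likelihood test, adjusted by Benjamini-Hochberg over all 16806 genes. Calls required an adjusted p under 0.05 and a log2 ratio of (mean CPM + 1) over 0.58 in either direction. The SE is the log2 fold change over the square root of F. The quasi-likelihood fit was first run with the dispersions of edgeR 3 and then changed to those of edgeR 4, to match an earlier analysis of these data. Both results had been seen by then, and the change gave Dagla its call. Library measures were compared by exact permutation. GENCODE M21 gave symbols for 54809 of 54838 identifiers, positions and exonic lengths. Depth limits apply to counting error only, since amplified reads are not independent molecules. The edgeR p-values set the group difference against the spread between pools, estimated with information shared over genes and without pairing. No libraries of a group were duplicates (chi-square per degree of freedom at least 4.68).

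The 9 genes and the lists of related and marker genes were chosen with earlier results of these data known. Named are all 9 genes, each called gene and the most abundant gene per length of each related list, defining markers, and the 3 genes nearest to Cnr1. Alternatives were other scalings (DESeq2 1.42.0 size factors, upper quartile, total counts), filters, tests and thresholds, a replicate block, GC and length offsets (mgcv 1.9.3), gene subsets, a covariate and each library left out.

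On simulated counts with 200 of 16102 genes changed by a log2 of 1, the test recovered 69.5%, with 8.55% of passing genes false. Passing here meant an adjusted p below 0.05, without the fold threshold of a call. The changed genes were drawn from the more abundant ones. In the data 33.6% of tested genes passed at that level, so these rates do not carry over to the reported calls. With edgeR 3 dispersions the test recovered 68.0% with 4.89% false, the likelihood-ratio test 78.0% with 18.8% and DESeq2 81.0% with 22.5%. A first bar of 15% false among passing genes, set for all tests, was missed by the last 2. It was then limited to the quasi-likelihood tests, at 10%, after the values were seen.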

Additional observations from a re-analysis of the deposited data

How the results depend on the processing

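Across 27 alternatives, Cnrip1, Dagla, Daglb, Mgll, Faah, Napepld and Abhd12 kept their direction. Abhd6 turned to -0.0660 without dorsal library 3, -0.0520 without ventral library 3, -0.00372 with GC and length offsets, -0.0171 with these and the replicate block, and -0.17 with the share outside genes as a covariate. Cnr1 turned to 0.0889 ± 0.199 (SE) with that covariate. The cause was not tested. Dagla lost its call in 11 alternatives and Daglb in 6, and Faah gained one in 11. The number of the 9 genes called dorsal-enriched, 2 as reported, was 1 without an expression filter, 0 at an adjusted p below 0.01 and 0 with the covariate. It was 4 with GC and length offsets, with or without the replicate block, and 4 without a fold threshold, which also gave 2 ventral-enriched. It was 1 with edgeR 3 dispersions, an alternative added after the data were seen, and from 0 to 3 with 1 library left out. Over all tested genes there were 2636 dorsal and 1655 ventral calls. This became 1498 and 897 at an adjusted p below 0.01, and 833 and 340 with the covariate. Protein-coding genes alone, 13635 tested, gave 1665 dorsal and 1292 ventral calls. In the reported fit 1540 and 1397 of the calls were protein-coding. GC and length offsets moved the median log2 fold change of the 9 genes from 0.32 to 0.50. Of the called related genes, Fabp5 kept its call throughout and all 6 kept their direction. Plcb4, Pla2g4e, Naaa, Alox12 and Fabp3 lost their calls with the covariate, and Fabp3 also with the GC and length offsets. Alox12 fell below the expression filter in 3 alternatives. Without an expression filter the median of all genes moved by 0.11.

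The replicate block left 1 of the 9 genes called, Dagla having an adjusted p of 0.0726. Both groups come from the same mice, but whether equal replicate numbers hold the same mice is not given in the sources used here, and the check did not show such pairs: deviations of same-numbered libraries correlated at 0.0159 on average (-0.0317 to 0.0695), and other pairs at -0.00207.

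Low counts limit the precision for Daglb (26 to 103 per library), Pla2g4e (132 dorsal and 457 ventral counts in sum) and Alox12 (58 and 6), among others.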

Other observations

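Within a library, the ratio of Dagla to Mgll counts per length, the main enzyme of 2-AG synthesis over the main enzyme of its removal, averaged 0.884 ± 0.235 over the dorsal and 0.711 ± 0.239 over the ventral libraries (SD, n = 5). It ran from 0.516 to 1.16 and from 0.334 to 0.919, and the ranges overlapped. The ratio of Mgll to Abhd6 was 2.06 ± 0.4925 and 1.63 ± 0.173, and that of Mgll to Abhd12 was 0.428 ± 0.0614 and 0.414 ± 0.0195, likewise overlapping. Prox1, a marker of granule cells, was called dorsal-enriched, at 289 ± 24.7 against 175 ± 47.5 CPM, and Calb1, of the same list but named after its values were seen, was called ventral-enriched, at 124 ± 22.8 against 229 ± 34.8 CPM. Of the 5 markers, 2 had a higher and 3 a lower fitted dorsal level. Calls made up 20% in each direction, beside 15.7% of all tested genes called dorsal-enriched and 9.85% ventral-enriched. Summed granule cell markers ran from 921 to 1132 and from 1001 to 1270 CPM. Mitochondrially encoded mRNA reached 2967 ± 315 CPM in dorsal pools against 790 ± 307 CPM in ventral pools, with no overlap (two-sided exact permutation test, p = 0.00794).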
